A study of Homo sapiens with 20 samples.

Results

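The genes described here are 10 direct transcriptional targets of the tumour suppressor p53: MDM2, GDF15, SESN1, SESN2, BBC3, BAX, FAS, TNFRSF10B, TP53INP1 and ZMAT3. They were chosen by symbol among the 20237 coding records of a transcript catalogue of 38369 records, and each of the 10 symbols had 1 coding record. RNA was sequenced from neural progenitor cells made derived from the established embryonic stem cell line H1. The labels give 20 cultures on 7 days of neuronal differentiation, 3 each on days 0, 1, 2, 4, 11 and 18 and 2 on day 5, from which the submitters had removed an outlier. Day 0 cells grew in medium with the mitogen FGF, on which progenitor division depends. All later cells were in medium with BDNF, a neurotrophic factor, and without FGF. The base medium and its supplements changed at the same switch, so loss of FGF cannot be told apart from these changes. Cells of days 5, 11 and 18 had also been replated at day 4 from Matrigel onto Poly-D-lysine and laminin, so that step cannot be told apart from time. All cultures came from 1 cell line, and the labels name no DNA-damaging agent.

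p53 is a transcription factor that is normally kept low by MDM2, a ubiquitin ligase that marks it for degradation and is itself switched on by p53. Stresses such as DNA damage stabilise p53, which then binds response elements near its target genes and induces cell cycle arrest, DNA repair, metabolic adjustment or apoptosis. In the developing brain, p53 and its apoptotic targets are known for removing damaged neural progenitors. Several of these genes answer to other regulators as well. GDF15, SESN2 and TNFRSF10B, for example, are also known targets of the integrated stress response, in which phosphorylation of eIF2alpha raises the factors ATF4 and CHOP (gene DDIT3).

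The p53 response element is built of 2 half-sites of 10 bases. The elements of members are shown because they mark the feature for which these genes are grouped, whatever their expression did. The human reference GRCh37 (hg19, the build of the files) was searched within 2500 bases on either side of the annotated main start of 20112 protein-coding genes for 2 abutting copies of the p53 half-site consensus. The C and the G of each half-site core had to be present, and at most 2 of the 20 bases could differ. Such an element was found at 6 of the 10 genes, against 3.77% of all genes. As the genes were selected as p53 targets, this share is a description. The sequences that follow read 5′ to 3′ along the strand of the gene, with the invariant C and G of each half-site in capitals.
MDM2: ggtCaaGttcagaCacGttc
GDF15: catCttGcccagaCttGtct
BAX: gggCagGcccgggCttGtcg
FAS: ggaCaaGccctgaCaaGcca
ZMAT3: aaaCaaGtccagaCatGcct
The MDM2 element lies in an intron, at chr12:69202703-69202722 on the plus strand, 746 bases past the start. That of GDF15 (chr19:18496118-18496137, plus strand) begins 850 bases before the main start, in an intron of a longer annotated transcript. The BAX element (chr19:49458470-49458489, plus strand) and the FAS element (chr10:90751066-90751085, plus strand) begin 338 and 652 bases past the start, and each overlaps an exon of at least 1 annotated transcript. ZMAT3 has the only element without a difference from the consensus (chr3:178787976-178787995, minus strand), in an intron 1602 bases past the start. TNFRSF10B also holds a match, at 390 bases past its start in an intron. The best window of BBC3 differed at 3 bases, that of SESN2 at 4, and those of SESN1 and TP53INP1 at 5. No match says only that these letters are not in this window.

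Each FPKM value (fragments mapped, scaled to transcript length and sequencing depth) is 1 number per record and day, pooled over the cultures of that day. No value of a single culture was used here, so there is no spread between replicates, no test and no error for any value, and the depth behind each is unknown. A change was therefore described by its size. Between days the whole table shifted: the median log2 change of the 11793 expressed coding records (mean FPKM 1 or more) was -0.60 from day 0 to day 18, and -0.28 of this lay between days 11 and 18. Changes below are log2(FPKM + 0.1) differences relative to this median unless they are said to be as deposited, and "rose" or "fell" is used for a relative change of at least 2-fold. In bulk RNA, fewer cells of a type and less RNA per cell cannot be told apart.

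Over the 18 days, the 10 genes did not follow a single course. GDF15 and SESN2 had risen by day 1, after the change of medium, were highest on day 2 and later fell. BBC3 and TP53INP1 lay above their day 0 level on every later day relative to the median record. BAX fell, and MDM2, FAS and TNFRSF10B had their lowest values at the end. SESN1 and the FAS record had the narrowest relative ranges. From day 0 to day 18, 2 of the 10 genes passed 2-fold, GDF15 and BAX, both lower, against 26.8% of coding records called in either direction (12.1% lower and 14.7% higher). The share of 2 in 10 is near that background. Their median relative change was -0.34, where the median coding record is at 0 by construction, and -0.94 as deposited. As deposited, 5 of the 10 passed 2-fold, all lower, because MDM2, FAS and TNFRSF10B were added, where 37.5% of coding records passed and 29.9% were lower. At a limit of 1.5-fold relative to the median, 5 genes passed (MDM2, GDF15, BAX and TNFRSF10B lower, TP53INP1 higher), against 46.9%.

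**Figure D1:**
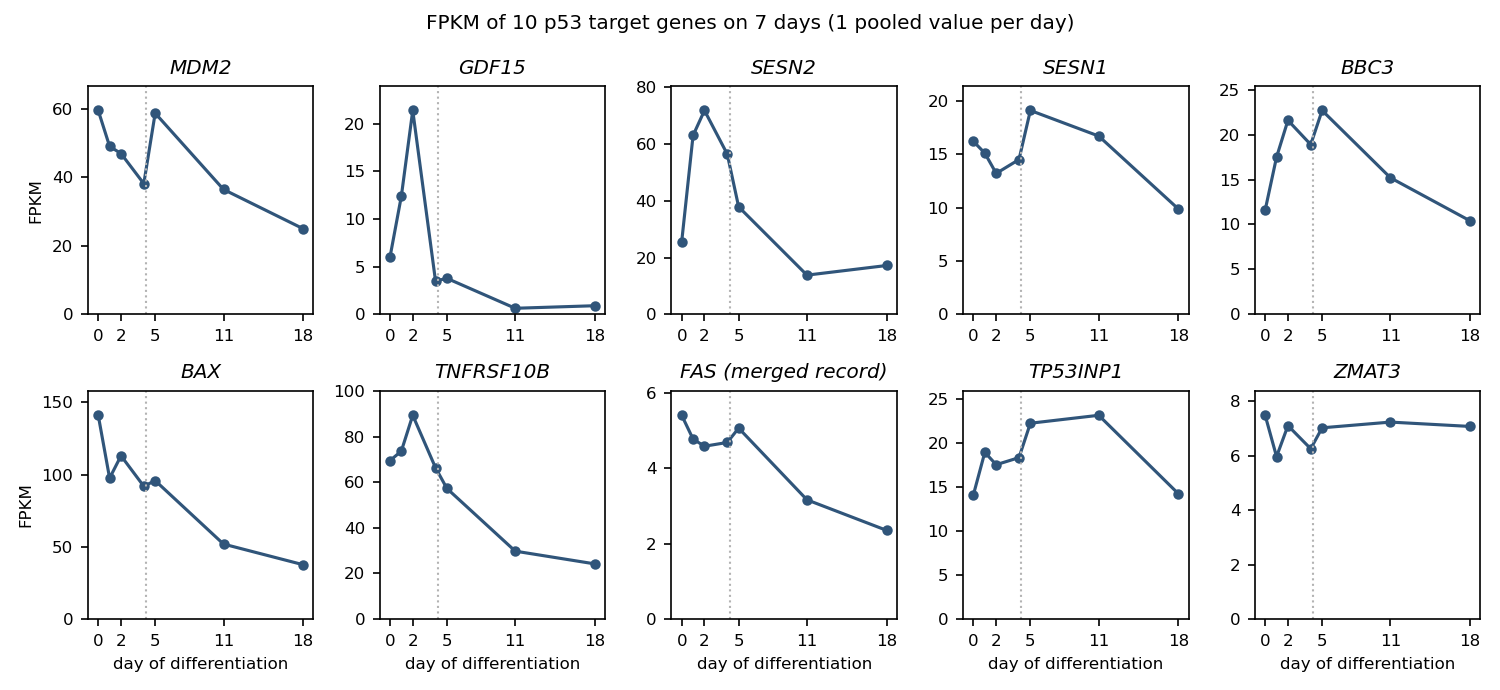
FPKM (vertical axes, from 0, a different scale for each gene) against the day of differentiation (horizontal axes) for the 10 p53 target genes; each point is the authors' pooled value of 1 day and the dotted line, just past the day 4 point, marks the replating. GDF15 and SESN2 peak on day 2 at 21.4 and 71.9 FPKM, MDM2 is at 38.2 on day 4 and 58.8 on day 5, and BAX goes from 141 on day 0 to 37.6 on day 18.

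MDM2 (chromosome 12, 69201971 to 69239211, plus strand), the feedback inhibitor of p53, was among the more abundant of the 10 genes. Its FPKM was 59.6 on day 0, 49.1 on day 1, 47.0 on day 2, 38.2 on day 4, 58.8 on day 5, 36.5 on day 11 and 25.0 on day 18. MDM2 was thus lower on each sampled day up to day 4, near its day 0 level the day after replating, and lower again on days 11 and 18. The relative log2 change from day 4 to day 5 was 0.69, which placed MDM2 at percentile 98.4 of coding records. At a limit of 1.5-fold, MDM2 was the only one of the 10 called at that step, where 3.26% of coding records were called and 2.59% were higher. From day 0 to day 18 its relative log2 change was -0.65, and -1.25 as deposited.

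GDF15 (chromosome 19, 18496968 to 18499986, plus strand) encodes a secreted stress cytokine of the TGF-beta superfamily and varied most. Its FPKM was 5.98 on day 0, 12.4 on day 1, 21.4 on day 2, 3.49 on day 4, 3.77 on day 5, 0.627 on day 11 and 0.896 on day 18. Day 2 was thus 34.2 times as high as day 11. GDF15 rose from day 0 to day 1 (relative log2 change 1.15), fell from day 2 to day 4 (-2.59) and fell again from day 5 to day 11 (-2.25). The fall from day 2 to day 4 put it at percentile 0.0127 of coding records, at a step where 0.78% of them passed 2-fold and 0.653% were lower. It was the only one of the 10 that passed 2-fold at that step. GDF15 was at least 2-fold above day 0 on day 2 and at least 2-fold below it on day 18. Of the 11793 coding records, 12 had this course (0.102%), GDF15 among them. The pattern was not planned beforehand and was worded to describe GDF15, so its rarity is a description. All 1200 exon bases of the record lie within a noncoding record on the other strand, linc-GDF15-AS, which had a mean of 0.0485 FPKM.

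The sestrins are stress-induced inhibitors of mTORC1 with antioxidant roles, and the pair behaved differently. SESN2 (chromosome 1, 28586006 to 28609001, plus strand) stood at an FPKM of 25.6 on day 0, 63.1 on day 1, 71.9 on day 2, 56.5 on day 4, 37.9 on day 5, 13.8 on day 11 and 17.2 on day 18. It rose from day 0 to day 1 (relative log2 change 1.40) and fell from day 5 to day 11 (-1.29). SESN2 ended near its starting level relative to the median record (0.02), although it was lower as deposited (-0.57). SESN1 (chromosome 6, 109307647 to 109415277, minus strand) had 16.2 on day 0, 15.1 on day 1, 13.2 on day 2, 14.5 on day 4, 19.1 on day 5, 16.7 on day 11 and 9.86 on day 18. SESN1 was thus lower on day 2 than on day 0, when SESN2 was at its highest, and its own highest value came on day 5. Its relative log2 range over the 7 days was 0.62, against 2.10 for SESN2.

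From day 0 to day 1, 2 of the 10 genes rose at least 2-fold, GDF15 and SESN2, and none fell, against 4.66% of coding records higher and 2.09% lower. On day 2 the same 2 genes were at least 2-fold above day 0, against 5.88% of coding records. None of the 10 passed 2-fold between days 1 and 2 (0.271% of coding records), days 4 and 5 (0.416%) or days 11 and 18 (3.24%). At 1.5-fold, GDF15 was called between days 1 and 2 (1.81%), and GDF15 and SESN2, both higher, between days 11 and 18 (6.38% higher). The latter changes were 0.45 and 0.31 on the log2 scale as deposited, both under 1.5-fold. From day 5 to day 11 the same pair of genes fell, and 3.05% of coding records did. With a limit of 1.5-fold, 4 genes were called at that step, all lower: GDF15, SESN2, BAX and TNFRSF10B, where 6.97% of coding records were lower by that limit.

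Among the apoptotic members, BBC3 and BAX act at the mitochondria. BBC3 (chromosome 19, 47724080 to 47736023, minus strand) encodes PUMA, a BH3-only protein that neutralises anti-apoptotic BCL2 proteins. Its FPKM was 11.6 on day 0, 17.5 on day 1, 21.6 on day 2, 18.9 on day 4, 22.7 on day 5, 15.2 on day 11 and 10.4 on day 18. BBC3 was therefore higher on days 1 to 11 than at either end of the course. Day 5 against day 0 passed 2-fold (relative log2 change 1.11), and BBC3 was the only one of the 10 to do so in that comparison, in which 12.6% of coding records were called and 7.5% were higher. As deposited this change was 0.96, just under the limit. On day 18 the relative log2 change was 0.44 and the change as deposited -0.15, so its direction at the end depended on the scaling. Of its exon bases, 52.3% are shared with linc-BBC3-AS on the other strand, whose mean was 0.509 FPKM.

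BAX (chromosome 19, 49458117 to 49465054, plus strand), the pore-forming effector that permeabilises the outer mitochondrial membrane, was the most abundant of the 10 genes. FPKM of BAX was 141 on day 0, 97.5 on day 1, 113 on day 2, 91.9 on day 4, 95.8 on day 5, 51.9 on day 11 and 37.6 on day 18. The level was lower on every later day than on day 0. BAX fell from day 0 to day 18 with a relative log2 change of -1.30, at percentile 7.72 of coding records, and as deposited the change was -1.90. On day 5, when BBC3 stood highest, the relative log2 change of BAX from day 0 was -0.41. By day 11 BAX had passed 2-fold (-1.11), as had GDF15 (-2.74), where 8.3% of coding records were lower by that limit.

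FAS and TNFRSF10B (the TRAIL receptor DR5) are death receptors of the cell surface. TNFRSF10B (chromosome 8, 22877648 to 22926700, minus strand) had 69.5 on day 0, 73.7 on day 1, 89.4 on day 2, 66.4 on day 4, 57.3 on day 5, 29.8 on day 11 and 24.2 on day 18. It was highest on day 2, with GDF15 and SESN2, and lowest on day 18. Its relative log2 change to day 18 was -0.92, just under the limit, and -1.52 as deposited. The FAS value cannot be assigned to FAS alone. Its record (chromosome 10, 90640026 to 90775541, plus strand) merges it with the neighbouring gene STAMBPL1, and only 13.3% of the record's exon bases lie in annotated exons of FAS. The merged record had 5.40 on day 0, 4.77 on day 1, 4.58 on day 2, 4.68 on day 4, 5.06 on day 5, 3.16 on day 11 and 2.35 on day 18, the lowest mean level of the 10.

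TP53INP1 (chromosome 8, 95938201 to 95961615, minus strand), which encodes a nuclear protein that promotes p53 phosphorylation and also takes part in autophagy, had its highest FPKM on day 11. The values were 14.1 on day 0, 18.9 on day 1, 17.5 on day 2, 18.3 on day 4, 22.2 on day 5, 23.1 on day 11 and 14.2 on day 18. Day 11 against day 0 passed 2-fold (relative log2 change 1.03), where 11.5% of coding records were higher by that limit, but as deposited the change was 0.71. ZMAT3 (chromosome 3, 178741527 to 178789584, minus strand), an RNA-binding zinc finger protein that controls splicing and mRNA stability, had 7.49 on day 0, 5.97 on day 1, 7.11 on day 2, 6.26 on day 4, 7.03 on day 5, 7.24 on day 11 and 7.08 on day 18. ZMAT3 stayed within 1.26 times between its highest and lowest deposited value, the narrowest of the 10. Its change to day 18 was 0.52 relative to the median and -0.08 as deposited. This value is uncertain, as 60.8% of its exon bases are shared with linc-ZMAT3-AS on the other strand, which had a similar mean (7.36 FPKM) and also varied little. Whether the counting used strand is not given in the sources used here.

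**Figure D2:**
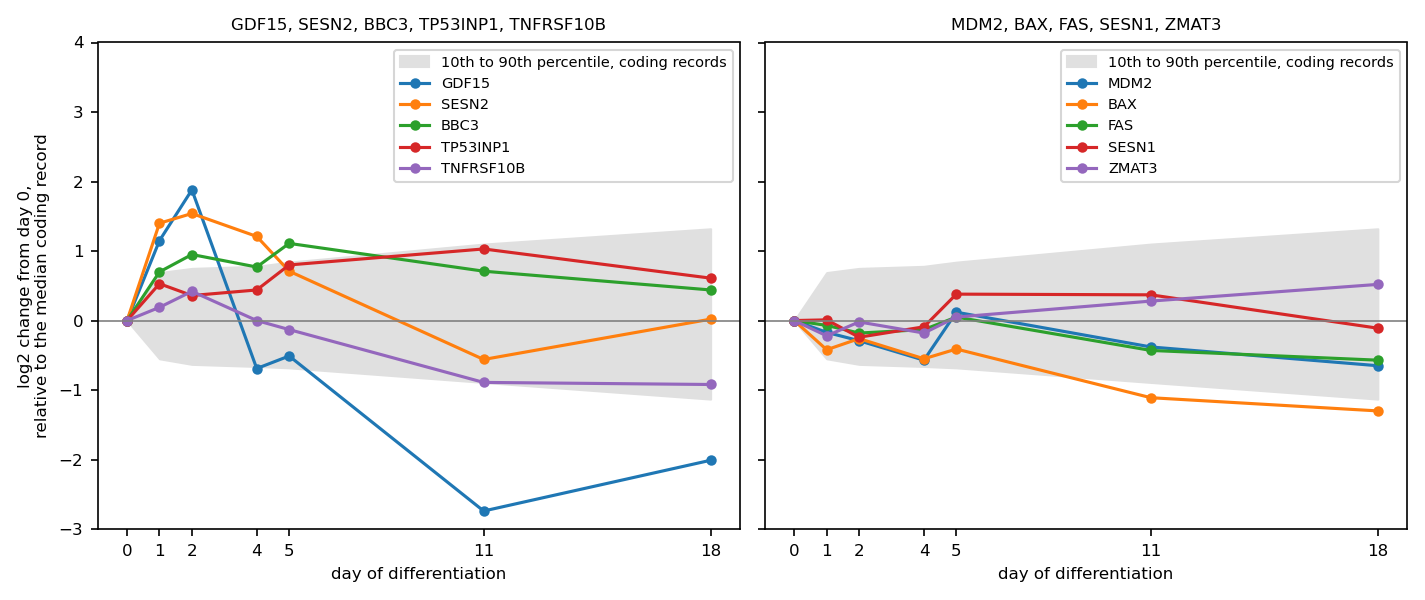
Log2 change of FPKM + 0.1 from day 0, relative to the median coding record (vertical axis), against the day of differentiation (horizontal axis) for the 10 genes in 2 panels; the grey band spans the 10th to 90th percentile of 11793 coding records. GDF15 and SESN2 lie above the band on days 1 and 2 (1.88 and 1.54 on day 2), and SESN2 also on day 4 (1.21). BBC3 is above it on days 1, 2 and 5 (1.11 on day 5). GDF15 lies farthest below it on day 11 at -2.74, and BAX is below it on days 11 and 18.

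Between the highest and the lowest day, 6 of the 10 genes differed at least 2-fold relative to the median record, against 34.1% of coding records: GDF15, SESN2, TNFRSF10B, BAX, BBC3 and TP53INP1. All 10 passed 1.5-fold, against 62.1%. The relative range was at percentile 99.0 of coding records for GDF15 and 90.6 for SESN2, and between 41.0 and 78.0 for the others. The day of the relative maximum also differed. It was day 5 for 4 genes (MDM2, BBC3, FAS and SESN1), where 4.82% of coding records had theirs, and day 2 for 3 genes (GDF15, SESN2 and TNFRSF10B), where 9.64% did. BAX was highest on day 0, TP53INP1 on day 11 and ZMAT3 on day 18. As deposited, 4 genes were highest on day 0 and 2 on day 5, so the count at day 5 depended on the scaling. Some of the day 5 maxima were also narrow, in values without a known error. Relative to day 0, MDM2 stood at 0.12 on day 5 and the merged FAS record at 0.05. SESN1 was at 0.38 on day 5 and 0.37 on day 11.

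The 45 pairs among the 10 genes had a median Pearson r of 0.17 over their 7 relative log2 values, which share their libraries within a day. Of these, 27 pairs were above 0 and 6 reached 0.8. As deposited, a scale added after seeing the data, the median was 0.51, with 35 pairs above 0 and 9 at 0.8 or more, so the likeness of the pairs depended on the scaling. The highest value was that of GDF15 with TNFRSF10B (0.95) and the lowest that of ZMAT3 with TNFRSF10B (-0.87, and -0.31 as deposited). BAX and FAS (0.90) and SESN2 and TNFRSF10B (0.84) were also alike, whereas MDM2 and SESN2 had an r of 0.08, and of 0.45 as deposited. By the same r over 7 days, the coding records most like SESN2 were SLC3A2 (0.998), a subunit of amino acid transporters, XBP1 (0.997), a factor of the unfolded protein response, and JDP2 (0.995), a bZIP repressor. SLC3A2 went from an FPKM of 119 on day 0 to 273 on day 2 and 63.8 on day 11. For GDF15 the nearest were HSD17B14 (0.981), DAPK3 (0.978) and RPE (0.978), and for TNFRSF10B they were TIMP3 (0.994), RUSC1 (0.994) and TRIP6 (0.993). These likenesses were picked as the highest of 11792 and are given without a test, on the relative scale only.

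Because GDF15, SESN2 and TNFRSF10B are also known targets of ATF4 and CHOP, 13 genes of the integrated stress response were set beside them. This list was chosen with earlier results of these data known, so its shares here and in the next paragraph are a description. On day 2, 10 of the 13 were at least 2-fold above day 0 and none was 2-fold below, against 5.88% of coding records higher by that limit. Their relative log2 changes on day 2 ran from 0.49 to 2.28. From day 5 to day 11, 9 of the 13 fell and none rose, against 3.05% of coding records lower. The relative maximum was on day 1 or 2 for 12 of the 13, against 17.1% of coding records, and the minimum on day 11 for 10 of them, against 11.8%. ATF4 itself, the central transcription factor of this response, had an FPKM of 327 on day 0, 454 on day 1, 485 on day 2, 376 on day 4, 293 on day 5, 141 on day 11 and 164 on day 18. DDIT3, which encodes the pro-apoptotic factor CHOP, had 17.8, 56.3, 83.5, 51.5, 39.2, 7.80 and 15.9 on the same days. It was thus highest on day 2 and lowest on day 11, as were GDF15 and SESN2. TRIB3, a pseudokinase induced by CHOP that was singled out after its values were seen, went from 20.0 on day 0 to 92.3 on day 2 and 4.28 on day 11. DDIT4, an mTORC1 inhibitor, had a relative log2 change of 1.45 from day 0 to day 18, and SLC7A11, the cystine transporter, one of -1.28.

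An r of at least 0.9 with SESN2 was reached by 10 of these 13 genes, against 2.31% of all coding records. For GDF15 it was 3 of 13 against 2.60%, and for TNFRSF10B 3 of 13 against 5.57%. The apoptosis and survival targets gave 2 of 10 for GDF15 and 2 of 10 for TNFRSF10B, a share close to that of the stress list. None of the other 7 coding lists compared with SESN2 had more than 1 gene at that limit. MDM2 did not share the early maximum: on day 2, when the stress list stood highest, its relative log2 change from day 0 was -0.29. Other p53 targets differed among themselves. PMAIP1 had its relative maximum on day 1 and an r of 0.87 with SESN2, and E2F7 had its maximum on day 0 and an r of 0.22. Of others named after their values were seen, NINJ1 (r 0.92), PHLDA3 (0.83), GADD45A (0.75) and CCNG1 (0.75) had their maximum on day 2. PLK2 (-0.77) had its maximum on day 0 and FBXW7 (-0.68) on day 11. The parts of p53 and of the stress response in these courses were not tested.

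**Figure D3:**
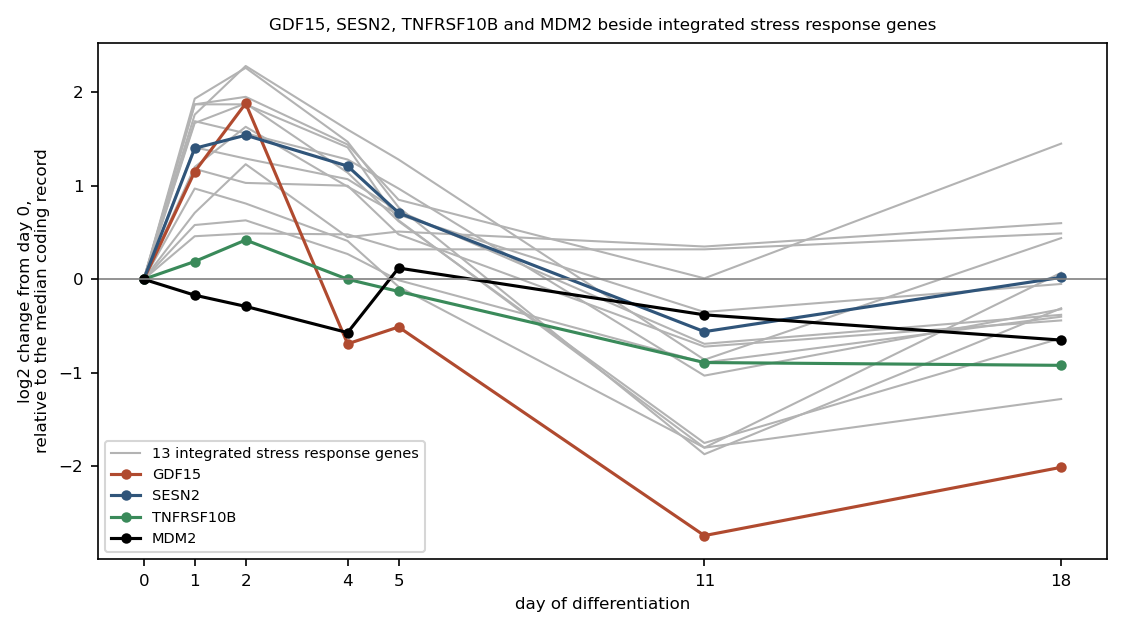
Log2 change of FPKM + 0.1 from day 0, relative to the median coding record (vertical axis), against the day of differentiation (horizontal axis) for GDF15, SESN2, TNFRSF10B and MDM2 (coloured and black lines with points) and for 13 integrated stress response genes (grey lines). GDF15, SESN2 and TNFRSF10B reach their maximum on day 2 (1.88, 1.54 and 0.42), when the grey lines run from 0.49 to 2.28 and MDM2 is at -0.29.

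The regulators of p53 were examined next. MDM4, the MDM2 homologue that blocks p53 transactivation, was between 8.27 and 10.2 FPKM on all days. Among the 18 expressed genes of the p53 family and its regulators, 1 rose and 2 fell from day 0 to day 18. Of all coding records, 14.7% rose and 12.1% fell. The median change of the 18 was 0.03 relative to the median record and -0.57 as deposited. As deposited, 5 of the 18 passed 2-fold, where 37.5% of coding records did. The 2 lower genes were the checkpoint kinases CHEK1 (38.8 to 9.38 FPKM) and CHEK2 (11.7 to 2.50), and the higher one was PPP1R13B (0.518 to 2.30), which encodes ASPP1, a cofactor that directs p53 to apoptotic promoters. Protein stability, the main level of p53 control, was not measured by these data.

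Other p53 targets were taken as 4 lists by role, and a gene is called expressed where its mean FPKM was 1 or more. Of 13 expressed targets in arrest and feedback, 1 rose, 1 fell and 11 stayed within 2-fold from day 0 to day 18, with a median of -0.13. Of all coding records, 14.7% rose and 12.1% fell. CDKN1A, the cyclin-dependent kinase inhibitor p21 and the best known p53 target in arrest, had 119.8 on day 0, 116 on day 1, 129 on day 2, 107 on day 4, 153 on day 5, 73.3 on day 11 and 68.0 on day 18. As with MDM2, day 5 lay above day 4. The p53 response element of CDKN1A is shown for comparison with those above, and begins 2265 bases before its main start (chr6:36644226-36644245, plus strand), where it overlaps an exon of at least 1 annotated transcript.
CDKN1A: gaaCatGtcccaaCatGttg
PPM1D, the phosphatase that ends the p53 response, was between 8.70 and 14.0. BTG2, an antiproliferative gene, passed the limit with a relative change of 1.00, but went only from 7.49 to 9.95 FPKM, and E2F7, a repressor of cell cycle genes, went from 17.9 to 2.43.

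Of 10 expressed targets in apoptosis and survival, 3 fell and none rose (median -0.74), against 12.1% of coding records lower. As deposited, 7 of the 10 passed 2-fold, where 37.5% of coding records did. The 3 that fell on the relative scale were PMAIP1 (NOXA, a BH3-only protein), TNFRSF10D (a decoy TRAIL receptor) and TP53I3 (an oxidoreductase). PMAIP1 had 14.7 on day 0, 21.3 on day 2 and 3.20 on day 18, TNFRSF10D went from 3.42 to 0.317, and TP53I3 from 30.0 to 8.09. Among 10 targets in repair and metabolism, 2 fell and 1 rose (median -0.32), while 5 passed as deposited and 1 with a pseudocount of 1. Of all coding records, 26.8% passed 2-fold on the relative scale and 37.5% as deposited. DDB2, a sensor of ultraviolet damage, went from 4.14 to 0.982 and DRAM1, a lysosomal regulator of autophagy, from 2.94 to 0.806, while FUCA1, a lysosomal fucosidase, went from 0.911 to 2.42.

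All 6 expressed secreted targets fell, with a median of -2.84, where 12.1% of coding records were lower by that limit. IGFBP3, which binds insulin-like growth factors, went from 47.0 to 3.22 FPKM. IGFBP7 went from 3.75 to 0.0747, LIF, a cytokine, from 4.45 to 0.453, CSF1, a macrophage growth factor, from 6.55 to 1.91, and THBS1, a matrix glycoprotein, from 63.0 to 16.1. Mesenchymal markers were lower with them: 4 of 5 expressed markers fell (12.1% of coding records). The summed FPKM of the 6 listed went from 624 on day 0 to 53.1 on day 18. TAGLN (367) and COL3A1 (238) made up most of the day 0 sum, and COL1A1 was listed at 0 on all 7 days. The part of such cells in this change was not tested. Of the noncoding p53 targets, matched by position on the same strand, 4 of 6 had a record. For LINC-PINT the match is partial, as only 14.8% of the record's exon bases lie in its annotated exons. The record within NEAT1, an architectural RNA of nuclear paraspeckles, went from 2.96 on day 0 to 10.6 on day 4 and 4.43 on day 18, a change of 1.16 relative to the median record and 0.57 as deposited.

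Most of the BCL2 family and caspases, with which BBC3 and BAX act, stayed within 2-fold, as did most coding records. Of 18 expressed genes, 1 rose, 3 fell and 14 did not pass the limit from day 0 to day 18, with a median of -0.20. Of all coding records, 26.8% passed it, so this share is near the background. BAK1, the other pore-forming effector beside BAX, went from 13.9 to 3.99 FPKM, and BOK, a related family member, from 16.9 to 4.40. HRK, a BH3-only gene found mainly in neurons, went from 0.123 to 1.16. It was already at 1.17 on day 1, was highest on day 2 at 1.96, and stood at 0.760 on day 11. In the death receptor pathway, 4 of 5 expressed genes fell, against 12.1% of coding records, with a median of -1.15: the adaptor FADD (19.2 to 5.64), the initiator caspase CASP8 (5.31 to 0.600), the kinase RIPK1 (10.2 to 3.07) and the TNF receptor TNFRSF1A (42.1 to 11.8). FASLG and TNFSF10, the ligands of FAS and TNFRSF10B, did not exceed 0.0138 FPKM on any day.

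**Figure D4:**
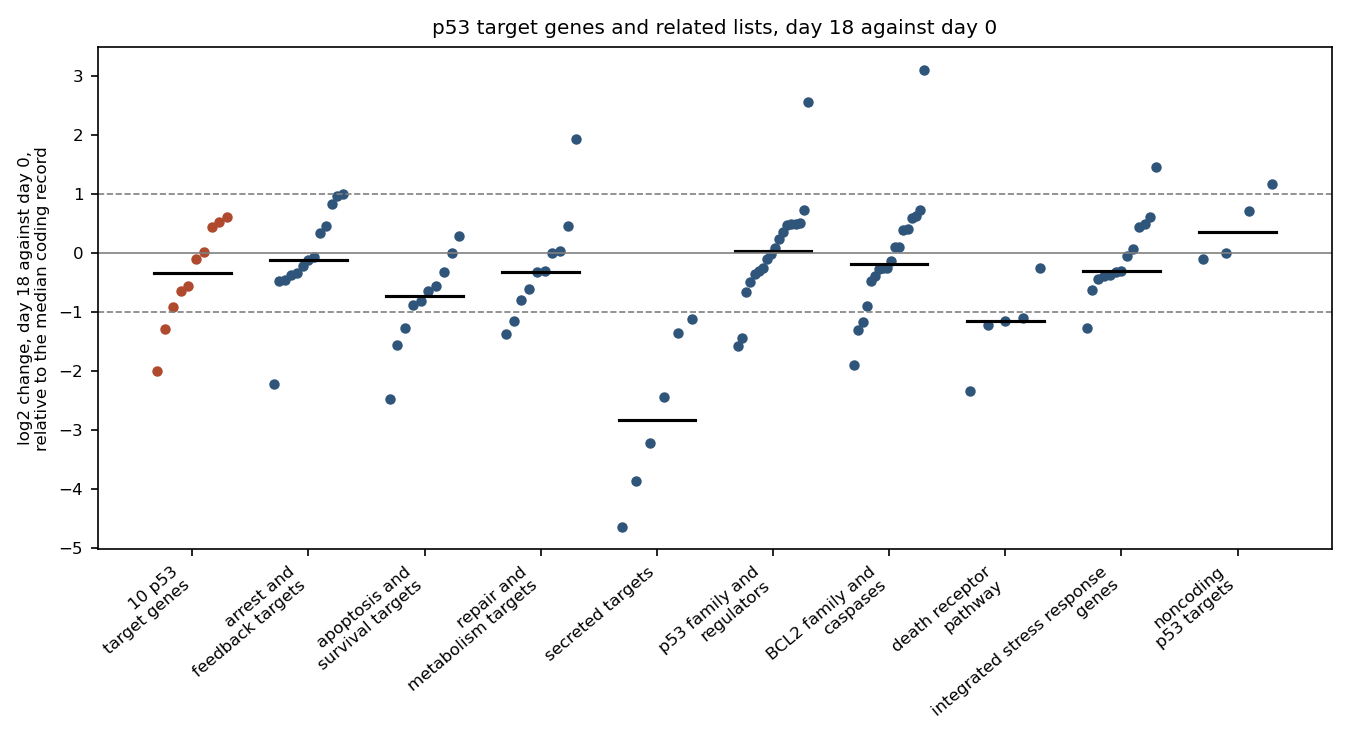
Log2 change from day 0 to day 18 relative to the median coding record (vertical axis) for the 10 p53 target genes (red) and 9 related lists (blue); each point is an expressed gene (mean FPKM 1 or more), black bars are list medians and dashed lines mark 2-fold. The 10 genes run from -2.01 to 0.61 with a median of -0.34, and the secreted targets lie lowest with a median of -2.84.

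Across the 9 lists, which include the noncoding targets, 28 of 97 expressed genes passed 2-fold from day 0 to day 18 (28.9%, against 26.8% of coding records). Of the 97, 6 were higher and 22 lower, where 14.7% of coding records were higher and 12.1% lower. As deposited, 3 were higher and 36 lower, where 29.9% of coding records were lower. Markers of the cell types moved over the same days. All 5 markers of dividing cells fell from day 0 to day 18, where 12.1% of coding records fell, and their summed FPKM went from 459 to 76.6. It stood at 228 on day 1 and 218 on day 2, when GDF15 and SESN2 were high. Neuronal markers rose in 5 of 7 cases, where 14.7% of coding records rose. Their sum was 519 on day 0, 323 on day 1 and 1347 on day 18. Among the 7 neural progenitor markers 1 passed 2-fold, PAX6, which was higher. Astrocyte and oligodendrocyte markers summed to between 1.59 and 10.1 FPKM, and S100B made up 8.68 of the highest sum, on day 0, while pluripotency markers summed to at most 0.116. The 2 matched endothelial and blood markers summed to 2.35 on day 0, nearly all of it CDH5, and to at most 0.192 later. The part of changing cell makeup in the courses of the p53 targets was not tested.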

How the data were processed

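Paired-end RNA-Seq reads were aligned by the authors to hg19 with TopHat2 at default options, assembled with Cufflinks, and merged with a lincRNA catalogue and coding genes. Program versions are not given in the sources used here. The deposited FPKM values were estimated by the authors with Cuffdiff2, 1 value per record and day, pooled over cultures; 0 columns held single cultures. A second deposited table holds exon positions, names, the same FPKM values (which differed for 4 records, none of them a member) and the authors' own fold changes, test statistics, p-values and q-values for adjacent days, which were not used. Its other deposited columns, such as exon starts and ends, served to place records.

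Changes were computed in Python 3.11.15 (pandas 2.3.3, NumPy 2.4.6) as log2(FPKM + 0.1), minus the median over 11793 coding records of mean FPKM 1 or more, and called at 2-fold; the calculation was tested on simulated data. A symbol's record with the highest mean FPKM was used, older symbols being looked up in reference tables. The members and lists were chosen with earlier results of these data known. All 10 members are described; of the lists, genes past 2-fold from day 0 to day 18 and with mean FPKM 1 or more are named, up to 6 a list, plus MDM4, CDKN1A, PPM1D, ATF4 and DDIT3, and the 3 records most like each of the 3 members of largest range. Alternatives were other scalings, pseudocounts, fold limits, summed records and leaving out merged records or day 5. Some genes that this rule names are counted in their lists but are not reported here by name.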

Additional observations from a re-analysis of the deposited data

How the results depend on the processing

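No paired analysis was possible because the files give 1 pooled value per day; for the same reason no culture could be left out. As deposited, without recentring, 5 of the 10 genes passed 2-fold from day 0 to day 18 instead of 2, and their median change was -0.94 instead of -0.34. That median was -0.22 when days were centred on coding records of mean FPKM 10 or more, and -0.11 with the merged FAS record left out. A limit of 1.5-fold gave 5 genes between days 0 and 18, 1 between days 1 and 2, 1 between days 4 and 5, 4 between days 5 and 11, 2 between days 11 and 18 and 10 between the highest and lowest day, and 44 genes of the related lists instead of 28. Pseudocounts of 1 and 0.01 and summed records kept the counts of the 10 genes and of all lists together within 1.5 times, as did leaving out day 5 for the highest against the lowest day. Single lists moved more: with a pseudocount of 1, repair and metabolism targets went from 3 genes to 1, arrest and feedback targets from 2 to 1 and noncoding targets from 1 to 0, and as deposited apoptosis and survival targets went from 3 to 7, repair and metabolism from 3 to 5, p53 family and regulators from 3 to 5 and noncoding targets from 1 to 0. The median r among the 10 genes went from 0.17 to 0.51 as deposited. With no filter on low values, 26.9% of 18480 coding records passed 2-fold from day 0 to day 18. Depth is unknown, so low values such as GDF15 on days 11 and 18 have no known precision.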
